A study of Mus musculus with 16 samples.

Results

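Cell cycle and proliferation genes were examined in mouse cortical cultures after oxygen-glucose deprivation (OGD) with and without tianeptine (TIA). The 40 genes were chosen by symbol from the deposited isoform table, which names 53679 symbols, and the isoform values of each symbol were summed. They were divided by role into 14 regulators of G1, 10 genes of DNA replication and 16 genes of G2 and mitosis. All 40 were measured, and all 40 passed the filter on low values in every comparison.

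RNA was sequenced from primary cortical neurons of wild-type (wt) mouse embryos at E15, in 4 groups of 4 cultures. The groups were CONTROL-VEH (sham, vehicle), CONTROL-TIA (sham, 10 μM TIA), OGD-VEH (3-h OGD, vehicle) and OGD-TIA (3-h OGD, 10 μM TIA). TIA, an antidepressant, or vehicle (the labels call these cultures untreated) was added at 8 DIV, 24 h before OGD at 9 DIV, and RNA was taken after 6 h of reoxygenation. Cultures 1 to 4 were CONTROL-VEH, 5 to 8 CONTROL-TIA, 9 to 12 OGD-VEH and 13 to 16 OGD-TIA, and values are given in that order. Whether cultures share a preparation is not given in the sources used here, so p-values measure the spread between these samples.

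Cells enter the cycle when cyclin D with Cdk4 or Cdk6, and then cyclin E with Cdk2, phosphorylate the retinoblastoma protein (Rb1) and release E2F factors, and most Cdkn proteins inhibit these kinases. E2F factors switch on the genes of DNA synthesis, and a later wave of genes, among them cyclin B, Cdk1 and the mitotic kinases, drives chromosome segregation. Mature neurons have left the cycle, whereas glial precursors and astrocytes in culture can still divide, and several G1 genes are also transcribed in postmitotic cells.

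Expression is given as FPKM, fragments divided by isoform length in kb and by M mapped reads, scaled between libraries by TMM. Tests were made with limma on log2(FPKM + 0.1), with p adjusted by Benjamini-Hochberg over all genes tested (padj). A gene was called when padj was at most 0.05 and the log2 fold change at least 1 or at most -1. Depth was estimated from the scaled values at 19.9 to 26.0 M reads per culture. The labels give 18 to 23 M aligned reads, which the highest estimates exceed. By the estimate 1 read on 1 kb of isoform was worth 0.0385 to 0.0503 FPKM. Replicates of one group correlated at r = 0.923 to 0.971 over 16313 genes, and no pair of libraries was identical. Some cultures stood apart from their group. Culture 9 was the lowest of OGD-VEH for 10 of 14 G1 regulators, 7 of 10 replication genes and 15 of 16 mitotic genes. Culture 16 was the highest of OGD-TIA for 12, 10 and 16 of them. Culture 4 was the highest of CONTROL-VEH for 13 of the 16 mitotic genes.

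The cell cycle genes spanned a wide range of levels in CONTROL-VEH. Cdk4 was the highest at 478 ± 35.4 FPKM (mean ± SD, n = 4 here and below), followed by Ccnd2 (cyclin D2) at 146 ± 30.2 and Pcna, the sliding clamp of DNA polymerase, at 97.2 ± 6.36. The lowest were Cdkn2a at 1.09 ± 0.424 and Cdk6 at 1.13 ± 0.353. Mitotic genes were low, from 2.43 ± 0.425 for Ccnb2 (cyclin B2) to 20.8 ± 9.29 for Top2a, the topoisomerase that untangles sister chromatids. Mki67, which encodes the proliferation antigen Ki-67, measured 2.83, 3.12, 3.92 and 6.42 FPKM in the CONTROL-VEH cultures, so transcripts of this marker of dividing cells were present without OGD.

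**Figure D1:**
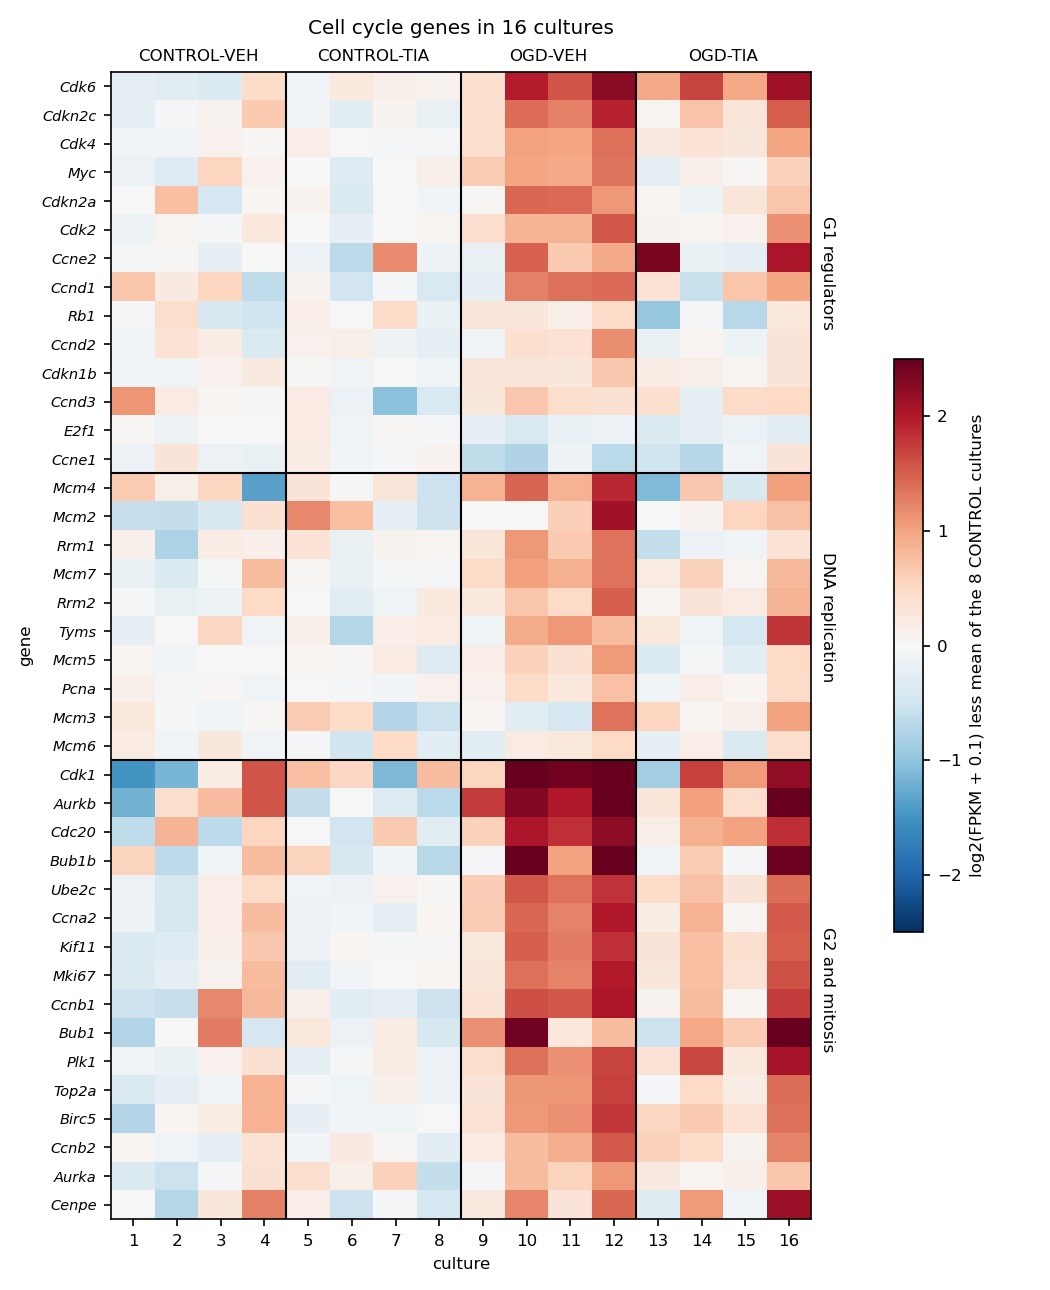
Heat map of the 40 cell cycle genes (rows, by class and by log2 fold change in OGD-VEH) in the 16 cultures (columns), as log2(FPKM + 0.1) less the mean of the 8 CONTROL cultures. Cultures 10, 11, 12 and 16 hold most of the high values, and culture 9 is the palest of OGD-VEH.

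After OGD with vehicle, cell cycle transcripts were higher than in CONTROL-VEH for 38 of 40 genes, with a median log2 fold change of 0.92 against 0.10 over all 16346 genes tested. The median was 1.16 for G2 and mitosis, 0.77 for G1 regulators and 0.66 for DNA replication. In these bulk samples, fewer cells of a type and less RNA per cell cannot be told apart, and neither can more cells and more RNA per cell. Called genes were Cdk6, Plk1 and Ube2c, all higher. This is 3 of 40 members, 7.5%, where 2.4% of all genes tested were called higher (668 genes, 4.09%, were called in either direction). At padj alone 5 members (12.5%) were higher, the others being Cdk4 and Myc, beside 4.99% of all genes, and none was lower (all genes, 3.45%). At an unadjusted p under 0.05, 27 of 40 (67.5%) were higher and 1 lower, beside 20.2% and 14.9% of all genes. The 2 groups did not overlap, in the upward direction, for 10 of 40 members (25%) and for 12.7% of all genes tested.

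The calls depended on which cultures entered the fit. Without culture 9 the number of called members was 23 in place of 3, with 2186 of 16366 genes called, and without any one of the other 7 cultures it was 0, with 1 to 71 genes called. Members called were 6 on protein-coding isoforms alone (6.28% of all genes called), 11 with isoforms weighted by length (6.79%), 11 with all 16 cultures in one fit (8.52%) and 18 with array quality weights (11.8%). None was called with all low genes kept (0.111%) or with the highest-mean isoform of each gene (0.12%). The fold changes moved less than the calls: that of Ube2c ranged from 1.15 to 1.55, that of Plk1 from 0.92 to 1.35 and that of Cdk6 from 1.16 to 2.02 over 20 alternative settings.

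Among the mitotic genes, Ube2c, the ubiquitin-conjugating enzyme that works with the anaphase-promoting complex, had the smallest p. Ube2c measured 8.91, 7.49, 11.1 and 13.8 FPKM in CONTROL-VEH and 15.2, 29.4, 25.5 and 34.9 in OGD-VEH. Every OGD-VEH culture was above every CONTROL-VEH culture, and the means stood at a ratio of 2.54. The log2 fold change was 1.31 ± 0.28 (SE) with padj = 0.0395 in limma, and the exact permutation test gave p = 0.0286, the smallest p that 4 against 4 cultures can give. With TIA, Ube2c measured 9.37, 8.98, 10.6 and 10.1 FPKM in CONTROL-TIA and 13.7, 16.5, 12.4 and 26.1 in OGD-TIA. These groups did not overlap either, at a log2 fold change of 0.75 ± 0.22 and padj = 0.154 in limma.

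Plk1, the polo-like kinase of mitotic entry and spindle assembly, measured 2.60, 2.43, 2.96 and 3.61 FPKM in CONTROL-VEH and 3.75, 7.34, 6.18 and 9.11 in OGD-VEH. The groups did not overlap, culture 9 lying just above culture 4. The log2 fold change was 1.10 ± 0.27 with padj = 0.0467 in limma. The TIA arm gave 2.30, 2.69, 3.12 and 2.47 in CONTROL-TIA and 3.57, 9.00, 3.30 and 11.8 in OGD-TIA. Here the 2 low OGD-TIA cultures lay just above the controls and the 2 high ones far above them, and the log2 fold change was 1.15 ± 0.41 with padj = 0.197 in limma. In the 2 high cultures an isoform of 582 bases, at 0 elsewhere, held 4.89 and 5.42 FPKM, and the isoform of 2199 bases held 4.10 and 6.34.

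Ccna2 encodes cyclin A2, the partner of Cdk2 and Cdk1 in S phase and G2. It measured 6.75, 5.56, 8.30 and 12.7 FPKM in CONTROL-VEH and 11.6, 20.2, 17.6 and 29.7 in OGD-VEH. The overlap came from cultures 4 and 9. The log2 fold change was 1.23 ± 0.33 with padj = 0.0518 in limma, above the threshold. In CONTROL-TIA, Ccna2 measured 6.65, 7.04, 6.24 and 7.65, and in OGD-TIA 8.43, 13.5, 7.65 and 21.5, a log2 fold change of 0.76 ± 0.30 with padj = 0.23 in limma. Culture 15 lay at the top of the control range, culture 13 just above it and cultures 14 and 16 clear of it.

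Cdk1, the kinase that drives mitosis, had the highest fold change of the 40 genes and a wide spread. It measured 5.33, 6.71, 17.2 and 45.2 FPKM in CONTROL-VEH and 22.2, 117, 81.9 and 119 in OGD-VEH. Culture 4 exceeded culture 9, and the log2 fold change of 2.45 ± 0.76 had padj = 0.0675 in limma. With TIA it measured 25.7, 21.9, 6.94 and 25.9 in CONTROL-TIA and 8.23, 49.7, 32.0 and 71.4 in OGD-TIA. Culture 13 lay among the controls, and the log2 fold change was 0.80 ± 0.70 with padj = 0.539 in limma.

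Aurkb, the kinase of the chromosomal passenger complex, measured 2.20, 6.93, 8.78 and 15.3 FPKM in CONTROL-VEH and 17.4, 25.7, 20.8 and 42.2 in OGD-VEH. With TIA it measured 3.33, 5.10, 4.04 and 3.16 in CONTROL-TIA and 6.29, 10.5, 6.96 and 36.8 in OGD-TIA. Neither pair of groups overlapped. The log2 fold changes were 1.87 ± 0.54 (padj = 0.0595) with vehicle and 1.55 ± 0.52 (padj = 0.185) with TIA in limma. The coding isoform of 1950 bases, with 15.6% of the sum, overlapped in both arms. It measured 1.178, 1.057, 1.19 and 3.889 FPKM in CONTROL-VEH and 1.207, 3.065, 3.686 and 3.057 in OGD-VEH. Its means with TIA were 1.158 in CONTROL-TIA and 2.68 in OGD-TIA.

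Cdc20, the activator of the anaphase-promoting complex, measured 3.53, 10.1, 3.50 and 8.06 FPKM in CONTROL-VEH and 8.30, 23.0, 20.0 and 26.7 in OGD-VEH. In CONTROL-TIA it measured 5.51, 3.98, 8.74 and 4.64, and in OGD-TIA 6.16, 10.3, 11.3 and 20.1. The OGD culture with the lowest value lay within its control range in both arms. The log2 fold changes were 1.65 ± 0.46 (padj = 0.0567) and 0.99 ± 0.37 (padj = 0.207) in limma.

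Ccnb1, cyclin B1, the partner of Cdk1, measured 3.99, 3.83, 13.4 and 10.3 FPKM in CONTROL-VEH and 7.37, 17.8, 17.2 and 23.7 in OGD-VEH. The TIA arm gave 6.30, 4.82, 4.88 and 4.00 in CONTROL-TIA and 6.14, 9.99, 6.03 and 19.6 in OGD-TIA. Cultures 3 and 4 exceeded culture 9 with vehicle, and culture 5 exceeded cultures 13 and 15 with TIA. The log2 fold changes were 1.15 ± 0.50 (padj = 0.137) and 0.89 ± 0.36 (padj = 0.235) in limma.

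The other mitotic genes had positive fold changes without padj of at most 0.05 in OGD-VEH. They were Bub1b (1.46) and Bub1 (1.12) of the spindle checkpoint, the spindle motor Kif11 (1.19), Mki67 (1.16), Top2a (1.02), Birc5 (survivin, 0.99), Ccnb2 (0.83), the centrosomal kinase Aurka (0.72) and the centromere motor Cenpe (0.60). Mean Mki67 was 4.07 ± 1.63 FPKM in CONTROL-VEH and 9.50 ± 4.22 in OGD-VEH, and mean Top2a was 20.8 ± 9.29 and 42.0 ± 15.8.

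**Figure D2:**
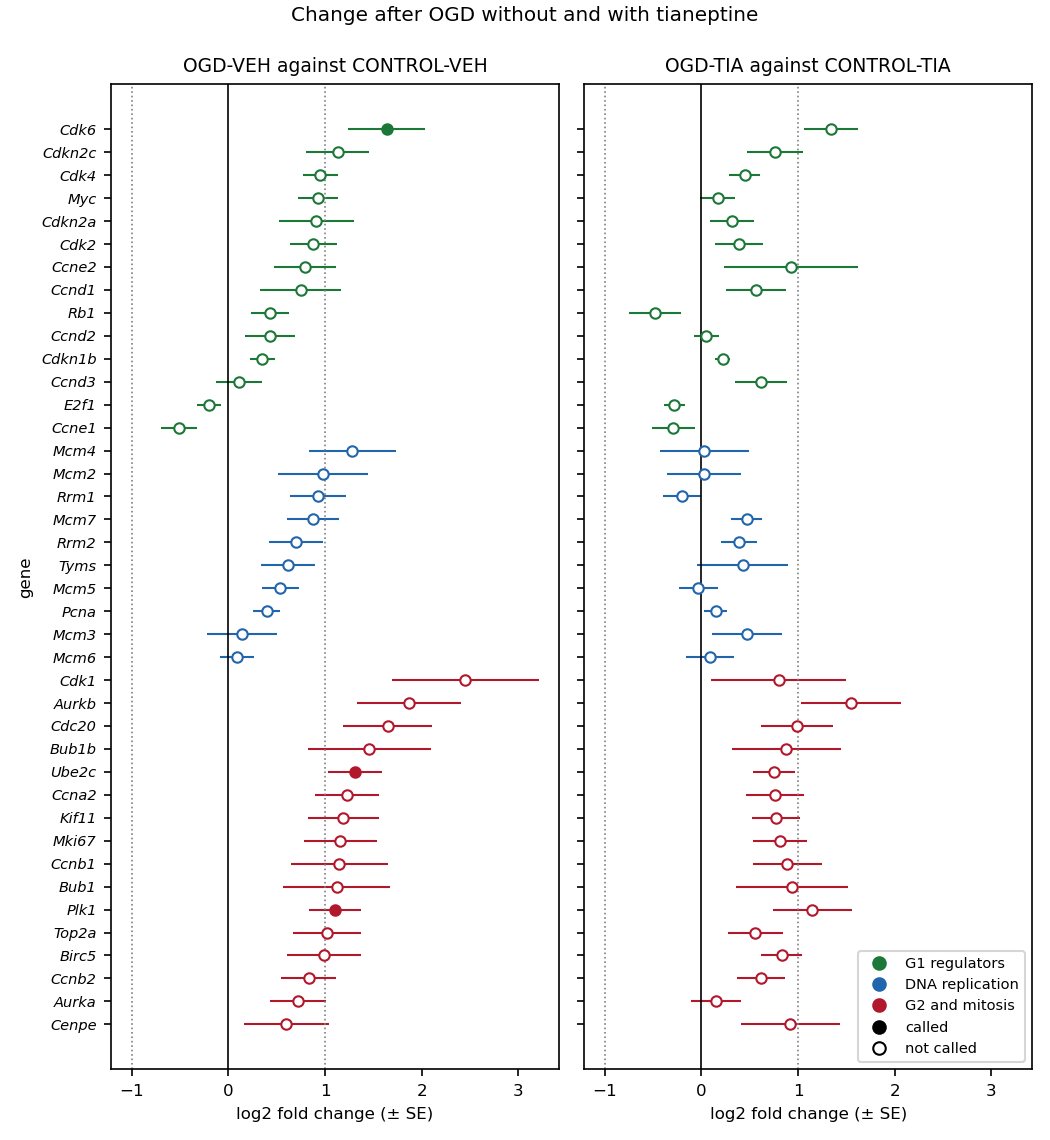
Log2 fold change ± SE (limma, 4 against 4 cultures) of each gene after OGD with vehicle (left) and with TIA (right), coloured by class, with filled points for called genes and dotted lines at -1 and 1. The 16 mitotic genes lie to the right of 0 in both panels, and the replication genes with TIA lie between -0.20 and 0.47.

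The G1 regulators were more mixed. Cdk6 rose in OGD-VEH: it measured 0.998, 0.968, 0.912 and 1.66 FPKM in CONTROL-VEH and 1.60, 4.87, 3.71 and 5.99 in OGD-VEH. Culture 9 lay just under culture 4, and the other 3 OGD-VEH cultures were above all controls. The log2 fold change was 1.64 ± 0.40 with padj = 0.0458 in limma, and the exact permutation test gave p = 0.0571. With TIA it measured 1.11, 1.41, 1.29 and 1.27 in CONTROL-TIA and 2.36, 4.05, 2.42 and 5.48 in OGD-TIA. These groups did not overlap, and the log2 fold change of 1.34 ± 0.28 had padj = 0.108 in limma. The coding isoform of 11525 bases, with 98.2% of the FPKM weighted by length, had means of 1.071 FPKM in CONTROL-VEH and 3.365 in OGD-VEH. With TIA its means were 1.066 in CONTROL-TIA and 1.814 in OGD-TIA, so other isoforms held part of the OGD-TIA sum.

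Cdk4 measured 446, 451, 521 and 492 FPKM in CONTROL-VEH and 631, 966, 951 and 1248 in OGD-VEH, a log2 fold change of 0.95 ± 0.18 with padj = 0.034 in limma. In CONTROL-TIA it measured 538, 475, 465 and 470 and in OGD-TIA 566, 611, 584 and 952, a log2 fold change of 0.45 ± 0.16 with padj = 0.202. Neither pair of groups overlapped, and culture 16 stood far above the other OGD-TIA cultures.

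Myc, the transcription factor that promotes growth and entry into the cycle, measured 30.6, 27.1, 48.8 and 36.1 FPKM in CONTROL-VEH and 52.5, 66.6, 65.0 and 84.9 in OGD-VEH. The groups did not overlap on the sum, and Myc rose by 0.93 ± 0.21 (padj = 0.0427, limma). On its isoform of 1765 bases, with 27.5% of the sum, they overlapped, at means of 9.394 FPKM in CONTROL-VEH and 15.142 in OGD-VEH. The TIA arm gave 33.7, 27.0, 33.8 and 37.2 in CONTROL-TIA and 28.9, 36.9, 34.2 and 50.3 in OGD-TIA. With TIA only culture 16 was above the control range, and the log2 fold change was 0.17 ± 0.18 (padj = 0.611, limma).

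Of the other G1 regulators, Cdkn2c (1.13), an INK4 inhibitor of Cdk4 and Cdk6, and Cdkn2a (0.91), whose locus encodes an INK4 inhibitor and from an upstream start the p53 regulator Arf, had positive log2 fold changes in OGD-VEH, at padj = 0.0582 and padj = 0.132 in limma. The Cdkn2a value rested on the isoform with the upstream start, ENSMUST00000107131, at a mean of 0.818 FPKM in CONTROL-VEH and 2.18 in OGD-VEH. The isoform with the downstream start, ENSMUST00000060501, had a mean of 0.268 FPKM in CONTROL-VEH and was at 0 in all 4 OGD-VEH cultures. Mean Cdkn2c was 4.56 ± 1.35 FPKM in CONTROL-VEH and 10.5 ± 4.18 in OGD-VEH. Cdk2 (0.88), Ccne2 (cyclin E2, 0.79), Ccnd1 (cyclin D1, 0.75), Ccnd2 (0.43), Rb1 (0.43), Cdkn1b (the inhibitor p27, 0.35) and Ccnd3 (cyclin D3, 0.11) were also above 0. Cdk2 lay at 3.61 to 4.75 FPKM in CONTROL-VEH and at 5.26 to 11.7 in OGD-VEH without overlap, at padj = 0.053 in limma.

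E2f1 and Ccne1 (cyclin E1) had negative log2 fold changes in OGD-VEH, of -0.20 ± 0.12 and -0.51 ± 0.19. E2f1, which encodes an activator of the replication genes, was singled out after its values were seen. It lay at 6.08 to 6.73 FPKM in CONTROL-VEH, 6.18 to 7.66 in CONTROL-TIA, 5.03 to 6.00 in OGD-VEH and 5.11 to 5.96 in OGD-TIA. Its groups did not overlap, downward, with vehicle (9.95% of all genes tested) or with TIA (6.72%). All 8 OGD cultures were below all 8 CONTROL cultures, a downward separation that 2.42% of all genes tested had and that no other member had. Upward, Cdk4 was the only member so separated, at 446 to 538 FPKM in the 8 CONTROL cultures and 566 to 1248 in the 8 OGD cultures, beside 3.22% of all genes.

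Replication genes gave no call and no padj of at most 0.05 in OGD-VEH, although 6 of 10 (60%) had an unadjusted p under 0.05, all higher, beside 20.2% of all genes tested. Rrm1, the large subunit of ribonucleotide reductase, measured 32.0, 17.1, 33.3 and 31.7 FPKM in CONTROL-VEH and 35.9, 61.9, 46.2 and 74.7 in OGD-VEH, without overlap. With TIA it measured 37.2, 25.8, 31.0 and 30.7 in CONTROL-TIA and 19.3, 26.4, 27.4 and 37.2 in OGD-TIA. The log2 fold changes were 0.93 ± 0.29 (padj = 0.0667) with vehicle and -0.20 ± 0.20 (padj = 0.587) with TIA in limma. Only with vehicle were the OGD cultures all above their controls on the sum. The coding isoform of 3997 bases held 35.2% of the sum and overlapped in both arms, with culture 4 at 12.429 FPKM above culture 9 at 10.852. Its mean was 10.599 in CONTROL-VEH and 16.108 in OGD-VEH. With TIA its mean was also higher after OGD, at 10.301 in CONTROL-TIA and 13.02 in OGD-TIA.

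Mcm7, a subunit of the MCM helicase that unwinds replication origins, measured 33.8, 29.8, 36.6 and 65.7 FPKM in CONTROL-VEH and 52.9, 77.0, 70.1 and 97.8 in OGD-VEH. In CONTROL-TIA it measured 38.9, 33.9, 36.9 and 36.8, and in OGD-TIA 44.1, 56.9, 39.6 and 66.6. With vehicle culture 4 lay above culture 9, and with TIA the groups did not overlap. The log2 fold changes were 0.88 ± 0.27 (padj = 0.0675) and 0.47 ± 0.16 (padj = 0.193) in limma.

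Mcm5, of the same helicase, measured 12, 10.8, 11.5 and 11.4 FPKM in CONTROL-VEH and 12.8, 17.1, 14.9 and 23.9 in OGD-VEH. The TIA arm gave 12, 11.6, 13.1 and 9.07 in CONTROL-TIA and 8.98, 11.2, 9.32 and 16.1 in OGD-TIA. The groups were separate with vehicle and mixed with TIA. The log2 fold changes were 0.54 ± 0.19 (padj = 0.0857) and -0.03 ± 0.20 (padj = 0.948) in limma. Of the remaining replication genes, Mcm4 (1.28), Mcm2 (0.98), Rrm2 (the small subunit, 0.70), Tyms (thymidylate synthase, 0.62) and Pcna (0.40) lay well above 0 with vehicle, and Mcm3 (0.14) and Mcm6 (0.09) near it.

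With TIA, OGD-TIA against CONTROL-TIA called none of the 40 members and none (0%) of 16242 genes tested in limma. The study, using DESeq2 at the same thresholds, did report differentially expressed genes between these groups. The absence of calls is therefore no shown absence of an OGD response with TIA. In limma 15 members (37.5%) were higher and 1 lower at an unadjusted p under 0.05, beside 11.6% and 7.92% of all genes. The median log2 fold change was 0.51 over the 40 members against 0.04 over all genes, and 0.29 without culture 16. By class it was 0.82 for the mitotic genes, of which 10 of 16 had an unadjusted p under 0.05, 0.36 for G1 regulators (4 higher and 1 lower of 14) and 0.12 for replication genes (1 of 10, Mcm7). The groups did not overlap upward for 11 members (27.5%), beside 9.51% of all genes. Among these were Cdk6, Birc5, Ube2c, Kif11, Aurkb, Mki67 and Plk1.

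All 8 OGD cultures were also set against all 8 CONTROL cultures, with TIA as a covariate. Members called were Aurkb (1.71 ± 0.39), Cdk1 (1.62 ± 0.58), Cdk6 (1.49 ± 0.25), Cdc20 (1.32 ± 0.32), Plk1 (1.13 ± 0.25), Ube2c (1.03 ± 0.20) and Ccnb1 (1.02 ± 0.32), all higher. These 7 of 40 (17.5%) compare with 2.8% of all 16313 genes tested called higher (1.99% were called lower, 4.78% in all). At padj alone 21 members (52.5%) rose and 2 (5%) fell, beside 18.7% and 13.4% of all genes. By class, 12 of 16 mitotic genes, 6 of 14 G1 regulators and 3 of 10 replication genes rose. The mitotic genes that rose beyond those called were Mki67, Top2a, Ccna2, Ccnb2, Birc5 and Kif11, and the G1 regulators were Cdk2, Cdk4, Cdk6, Cdkn1b, Cdkn2c and Myc. The replication genes were Mcm7, Rrm2 and Pcna. CONTROL-VEH and OGD-VEH cultures of the first comparison are among these 16. E2f1 (-0.24 ± 0.07, padj = 0.0179) and Ccne1 (-0.40 ± 0.15, padj = 0.0474) fell in limma.

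Cdk6 had padj of 0.00184 in this comparison and stayed called in all 27 alternative settings. The number of called members was 3 without culture 16, 4 without any one of cultures 1, 2, 10 and 12, 12 without culture 4, and 13 without any one of cultures 9, 13 and 15. All genes called, 780 in the full comparison, numbered 592 without culture 16, 526 to 686 without any one of cultures 1, 2, 10 and 12, 811 without culture 4, and 928 to 1058 without any one of cultures 9, 13 and 15. Cdk1 and Ccnb1 each lost the call in 13 of the 27 settings. Aurkb and Cdc20 lost it with protein-coding isoforms alone, with the highest-mean isoform and with the isoform holding most reads. Plk1 and Ube2c lost it at a pseudocount of 1, among other settings.

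TIA without OGD gave no difference that passed the test. In CONTROL-TIA against CONTROL-VEH none of the 40 members, and none (0%) of 16170 genes, was called in limma, and no member had an unadjusted p under 0.05 (all genes, 3.84%). The median log2 fold change of the members was -0.07 (-0.13 to 0.01 with 1 culture left out), with extremes of 0.61 for Mcm2 and -0.80 ± 0.52 for Aurkb.

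Within the OGD cultures, 37 of 40 members had lower means on the log2 scale in OGD-TIA than in OGD-VEH, at a median log2 fold change of -0.48 against -0.05 over all genes. This median was -0.30 without culture 12 and -0.75 without culture 16. The OGD-VEH cultures stand in this comparison and in that with CONTROL-VEH. No member, and none (0%) of 16351 genes, was called in limma. At an unadjusted p under 0.05 there were 6 members (15%), all lower, beside 5.04% of all genes: Myc, Rb1, Rrm1, Mcm4, Mcm5 and Mcm7. On the isoform holding most reads all 6 also had lower means in OGD-TIA. For Rb1 these were 16.286 FPKM in OGD-VEH and 14.528 in OGD-TIA, beside 90.4 and 60.4 on the sum. For Mcm4 they were 8.931 and 7.691, beside 52.4 and 25.2. On the sum Myc alone had groups that did not overlap, with 52.5 to 84.9 FPKM in OGD-VEH and 28.9 to 50.3 in OGD-TIA, as had 2.51% of all genes in this direction. Its log2 fold change was -0.85 ± 0.20, with padj = 0.551 in limma and p = 0.0286 in the exact permutation test, the smallest it can give. On the Myc isoform of 1765 bases, with 27.5% of the sum, these groups overlapped. That isoform measured 9.611, 23.526, 4.487 and 22.942 FPKM in OGD-VEH and 8.231, 11.683, 11.779 and 19.838 in OGD-TIA. The mitotic genes were all below 0 here, from -1.19 ± 0.76 for Cdk1 to -0.07 ± 0.46 for Plk1, and none of the 16 had an unadjusted p under 0.05.

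Whether the OGD difference itself differed between TIA and vehicle was tested by the interaction over 16 cultures. No member passed (0% of 16313 genes did, limma), and 3 members had an unadjusted p under 0.05, all lower, beside 3.4% of all genes in that direction: Rrm1 (-1.13 ± 0.37), Rb1 (-0.91 ± 0.36) and Myc (-0.76 ± 0.29), each with padj = 0.722 in limma. The median interaction was -0.36 over the 40 members, and it was -0.15 without culture 12, -0.63 without culture 9 and -0.66 without culture 16. That the call of Cdk6, Plk1 and Ube2c was made with vehicle and not with TIA is therefore no shown difference. Their interactions on summed values were -0.29 ± 0.51, 0.05 ± 0.52 and -0.56 ± 0.38. On the isoform holding most reads, Plk1 had means of 2.899 FPKM in CONTROL-VEH, 6.594 in OGD-VEH, 2.643 in CONTROL-TIA and 4.328 in OGD-TIA. For Cdk6 these means were 1.071, 3.365, 1.066 and 1.814. No member was called in the interaction on that isoform of each gene.

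**Figure D3:**
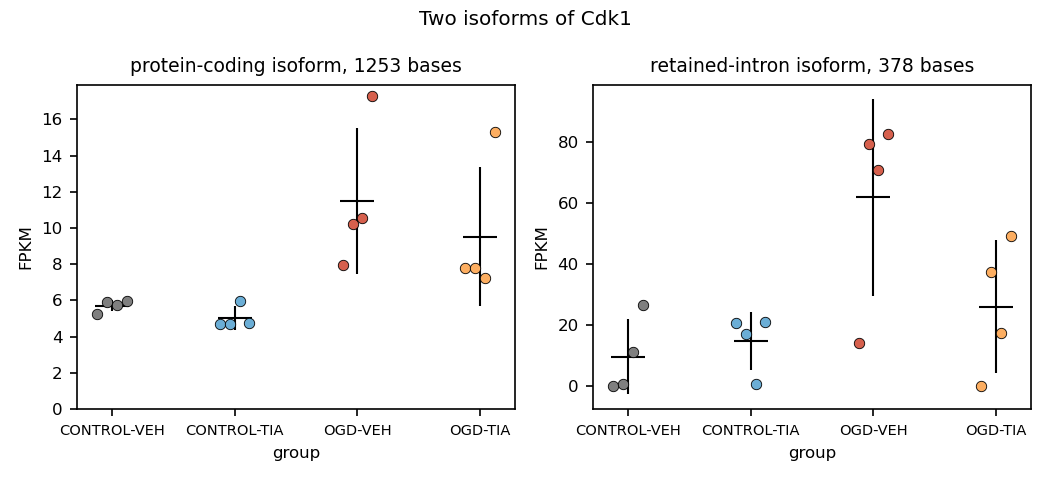
FPKM of a protein-coding and a retained-intron isoform of Cdk1 in each culture (points), with group mean and SD (bars, n = 4). The coding isoform separates the OGD groups from their controls, whereas the short isoform spreads from 0 to 82.7 FPKM and overlaps between groups.

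Several summed values rested on short isoforms. For Cdk1, isoforms under 600 bases held 79.1% of the summed FPKM over the 16 cultures, for Cdk4 77.8%, for Rb1 76.2%, for Mcm4 69.1%, for Ccnd3 65.2% and for Aurkb 62.2%, while Mki67, Kif11, Ccnb2, Ube2c and Ccna2 had nothing in them. An FPKM value divides by isoform length, so a small number of reads assigned to a short isoform weighs heavily in the sum. The coding Cdk1 isoform ENSMUST00000119827 (1253 bases) measured 5.26, 5.90, 5.74 and 5.98 FPKM in CONTROL-VEH and 7.95, 10.2, 10.5 and 17.3 in OGD-VEH. With TIA it measured 4.68, 4.69, 6.00 and 4.73 in CONTROL-TIA and 7.78, 7.79, 7.25 and 15.3 in OGD-TIA. Both pairs of groups were separate on this isoform, unlike on the sum. The isoform ENSMUST00000123458 (378 bases, annotated as retained intron) measured 0, 0.68, 11.3 and 26.4 in CONTROL-VEH and 14.1, 79.4, 70.9 and 82.7 in OGD-VEH.

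With protein-coding isoforms alone, the log2 fold change of Cdk1 in OGD-VEH was 0.98 ± 0.25 (padj = 0.0398, limma) in place of 2.45 ± 0.76. All 16 mitotic genes rose at padj of at most 0.05 against all CONTROL cultures both with protein-coding isoforms alone, where 23.8% of all genes did, and with isoforms weighted by their length, where 27.8% did. Of the G1 regulators 8 and 9 of 14 rose, and of the replication genes 5 and 6 of 10. Ccne1 did not pass on either (padj = 0.718 and padj = 0.109, limma), while E2f1 fell on both (padj = 0.00979 and padj = 0.00829). The 2 E2f1 isoforms are both protein-coding, so its sum over protein-coding isoforms was the same as its full sum. On single isoforms E2f1 did not pass, at a log2 fold change of -0.17 ± 0.12 (padj = 0.303, limma) with the highest-mean isoform and -0.17 ± 0.11 (padj = 0.277) with the isoform holding most reads.

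The 3 interactions named above differed in the same respect. On protein-coding isoforms alone that of Myc was -0.76 ± 0.28, that of Rrm1 -0.26 ± 0.28 and that of Rb1 -0.20 ± 0.12, none called in limma. All 8 Myc isoforms are protein-coding, so its sum could not change here, whereas Rrm1 and Rb1 have 1 such isoform each. The coding Rb1 isoform of 4656 bases lay between 13.3 and 17.9 FPKM in all 16 cultures, whereas a retained-intron isoform of 355 bases ranged from 20.8 to 84.9.

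Markers of the cell types in the cultures moved with these genes. In OGD-VEH against CONTROL-VEH 2.4% of all genes tested were called higher and 1.68% lower. The number called depended on the cultures fitted, as given above. Of 9 neuron markers none was above 0 in OGD-VEH against CONTROL-VEH and 1 was called lower (Syt1, -1.52). Their summed level was 2091 to 2791 FPKM in CONTROL-VEH, 2164 to 2357 in CONTROL-TIA, 1071 to 1967 in OGD-VEH and 1360 to 2200 in OGD-TIA. Of 7 markers of the oligodendrocyte lineage 4 were called higher (Cspg4, Olig1, Olig2 and Sox10), and Mbp, of mature oligodendrocytes, fell at padj = 0.0493 in limma. Their summed level was 177 to 213, 159 to 194, 244 to 676 and 225 to 438 FPKM in the groups in the same order. Of 8 neural progenitor markers 3 were called higher (Vim, Nes and Hes1), at summed levels of 1592 to 2096, 1701 to 1993, 2411 to 5759 and 2156 to 3859 FPKM. Of 7 astrocyte markers none was called in OGD-VEH, at summed levels of 479 to 776, 423 to 544, 641 to 1660 and 483 to 1220 FPKM.

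The OGD cultures with the highest levels of mitotic genes were those with the lowest levels of neuron markers. As a mean log2 difference from the CONTROL cultures, the mitotic genes scored 0.48, 1.65, 1.21 and 1.90 in OGD-VEH cultures 9 to 12, and neuron markers -0.19, -0.88, -0.87 and -1.39. In OGD-TIA cultures 13 to 16 the mitotic genes scored 0.10, 0.84, 0.33 and 1.79, and neuron markers -0.13, -0.42, -0.26 and -0.95. Within each OGD group the cultures thus ranked in opposite orders on the 2 scores. Culture 4, highest in mitotic genes among the controls at 0.73, was also their highest in neuron markers at 0.21. The opposite order of the OGD groups thus did not hold for it. Culture 4 was highest in astrocyte markers too, at 0.89, with Gfap at 87.4 FPKM beside 6.53 to 7.56 in the other CONTROL-VEH cultures. Gfap is a marker named after its values were seen. The part of these cells in the changes of the cell cycle genes was not tested. Defining markers of microglia and endothelial cells were near 0: 6 of 7 microglial markers (Cx3cr1, P2ry12, Tmem119, Csf1r, C1qa and Ptprc) and 3 of 5 endothelial markers (Cldn5, Cdh5 and Kdr) were under 0.5 FPKM in every culture. The summed levels over all cultures were 0.563 to 3.05 FPKM for microglia, 0.48 to 1.58 for endothelial cells and 7.39 to 18.3 for the 8 fibroblast and mural markers.

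**Figure D4:**
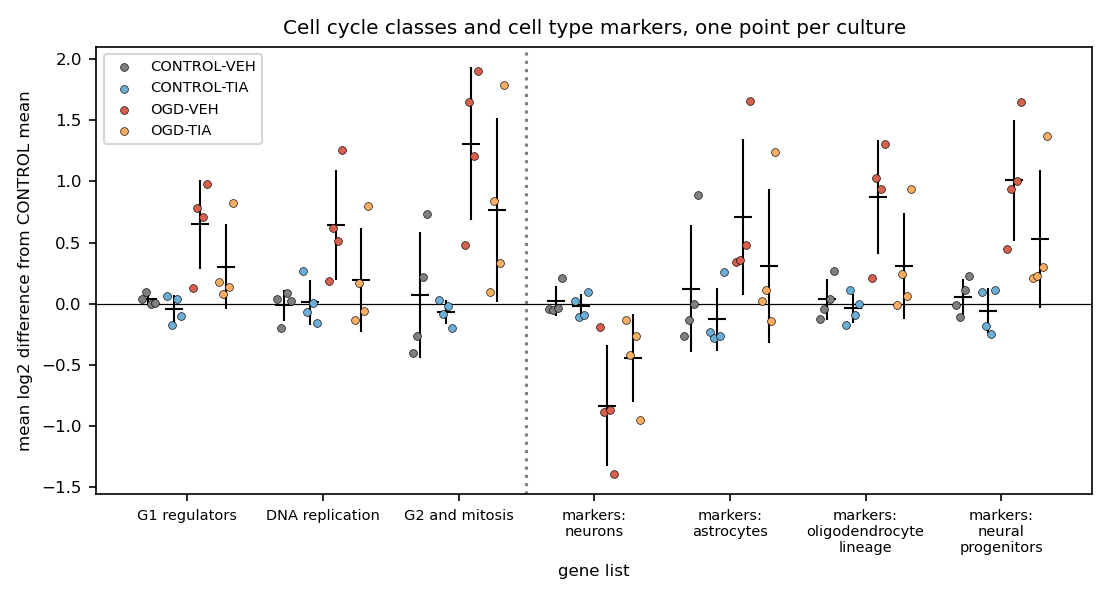
Mean log2 difference from the mean of the 8 CONTROL cultures for each gene class and marker list, with 1 point per culture and bars for group mean and SD (n = 4). Mitotic genes reach 1.90 in OGD-VEH and 1.79 in OGD-TIA in the cultures where neuron markers are lowest, at -1.39 and -0.95.

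Wider lists of cell cycle genes outside the 40 showed the same order of classes in OGD-VEH. The median log2 fold change was 0.89 over 59 other mitotic genes, 0.52 over 32 other G1 genes and 0.41 over 45 other replication genes. Of these 4, 2 and 2 were called higher and none lower, beside 2.4% and 1.68% of all genes. Called with vehicle were the spindle protein Ckap2 (1.75), the kinetochore subunit Spc25 (1.47), the cytokinesis factor Ect2 (1.30) and Cdca3 (1.27). In the G1 list they were the INK4 inhibitor Cdkn2b (1.54) and the p53 target Ccng1 (1.50), and in the replication list the licensing factor Cdt1 (1.07) and Mcm10 (1.16). Mean Ckap2 was 5.37 ± 1.43 FPKM in CONTROL-VEH, 5.31 ± 0.946 in CONTROL-TIA, 19.1 ± 6.74 in OGD-VEH and 12.2 ± 2.36 in OGD-TIA. Over all OGD cultures 15 of the 59 mitotic genes were called higher, beside 2.8% of all genes, among them the kinetochore gene Cenpf (2.01), the kinesin Kifc1 (1.66), Ckap2 (1.47), the spindle assembly factor Tpx2 (1.47) and Cdca3 (1.19), and 2 of 45 in the replication list, the origin gene Orc2 (1.14) and thymidine kinase Tk1 (1.0). In the G1 list 2 of 32 were called higher, Cdkn2b (1.11) and Ccng1 (1.05). With TIA the medians were 0.61, 0.28 and 0.21 in the same order, with none called.

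Genes of the mitotic wave are known to share promoter elements, so the promoters of the members were searched. RefSeq promoter windows on GRCm38.p6, each of 250 bases before and 50 after an annotated start, were given for 32 of the 40 genes and not for Ccnd1, Ccnd2, Ccne2, Rb1, Myc, Mcm4, Ccna2 and Aurkb. The motifs, sought on both strands, were TTTGAA (the core of the cell cycle genes homology region, CHR), CCAAT (bound by NF-Y), TTCCCGC or TTGGCGC (E2F-type) and GGGCGG (GC box). CCAAT can overlap TTGGCGC, as it did in Ccnb1 and in 1 of 2 windows of Mcm7. Ccnb1 was also called over all OGD cultures, and its window, which holds CCAAT and E2F-type letters but no CHR letters, is not printed. The windows below are those of Ube2c, Plk1 and Cdk6, called with vehicle, and of Cdk1 and Cdc20, called over all OGD cultures. They lie at chr2:164769679-164769978 (+ strand), chr7:122159185-122159484 (+), chr10:69352863-69353162 (-), chr4:118437294-118437593 (-) and chr5:3343643-3343942 (+), in the order printed. Capitals mark CHR, CCAAT and E2F-type letters on either strand.
Ube2c: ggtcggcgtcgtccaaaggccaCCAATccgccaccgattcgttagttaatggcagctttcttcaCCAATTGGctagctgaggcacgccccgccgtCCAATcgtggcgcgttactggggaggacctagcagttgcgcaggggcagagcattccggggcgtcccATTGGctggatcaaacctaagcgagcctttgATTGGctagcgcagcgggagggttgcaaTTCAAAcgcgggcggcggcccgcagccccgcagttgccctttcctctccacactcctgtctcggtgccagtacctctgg
Plk1: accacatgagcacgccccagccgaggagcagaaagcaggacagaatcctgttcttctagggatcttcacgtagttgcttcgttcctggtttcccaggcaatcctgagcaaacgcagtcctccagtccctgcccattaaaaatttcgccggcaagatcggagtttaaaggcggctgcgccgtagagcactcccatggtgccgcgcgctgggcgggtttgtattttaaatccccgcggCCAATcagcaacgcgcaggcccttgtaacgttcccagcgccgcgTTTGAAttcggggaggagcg
Cdk1: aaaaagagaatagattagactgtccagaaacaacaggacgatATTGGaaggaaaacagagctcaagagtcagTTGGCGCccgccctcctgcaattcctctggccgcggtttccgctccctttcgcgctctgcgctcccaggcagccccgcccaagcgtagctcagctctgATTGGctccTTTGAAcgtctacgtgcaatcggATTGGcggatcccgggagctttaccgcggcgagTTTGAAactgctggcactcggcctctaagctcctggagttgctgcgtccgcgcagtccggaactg
Cdc20: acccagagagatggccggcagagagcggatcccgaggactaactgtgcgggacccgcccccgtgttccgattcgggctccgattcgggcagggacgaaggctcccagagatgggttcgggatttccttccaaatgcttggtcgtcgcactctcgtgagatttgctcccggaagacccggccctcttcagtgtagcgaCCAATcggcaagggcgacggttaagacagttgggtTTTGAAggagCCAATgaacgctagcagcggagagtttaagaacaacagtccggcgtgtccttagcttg
Cdk6: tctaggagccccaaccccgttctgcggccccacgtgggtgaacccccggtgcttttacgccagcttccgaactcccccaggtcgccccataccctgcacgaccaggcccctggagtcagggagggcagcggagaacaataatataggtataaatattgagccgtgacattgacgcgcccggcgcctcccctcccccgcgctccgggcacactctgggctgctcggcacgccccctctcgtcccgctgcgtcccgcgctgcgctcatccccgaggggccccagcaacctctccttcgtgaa

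The 4 mitotic promoters printed each hold CHR-type letters, on the opposite strand in Ube2c, and at least 1 CCAAT match, and that of Cdk6 holds neither. In Cdc20 the CHR letters begin 18 bases before the start with CCAAT on both sides, in Ube2c they begin 29 bases before it, in Cdk1 71 and 15 bases before it, and in Plk1 31 bases after it. Over the class, 10 of 14 mitotic genes with a window (71.4%) held both motifs, beside 0 of 9 G1 regulators, 1 of 9 replication genes (11.1%, Mcm2) and 5.88% of the 10923 genes with a window and a mean FPKM of 0.5 or more. The CHR letters alone were in 10 of 14 mitotic genes and in 13.8% of those 10923, and CCAAT in 13 of 14 (92.9%) and 43.1%. E2F-type letters were in 5 of 9 replication genes (55.6%: Mcm3, Mcm5, Mcm6, Mcm7 and Rrm1), 3 of 9 G1 regulators (33.3%: Cdk2, Cdkn2a and Cdkn2c), 3 of 14 mitotic genes (21.4%: Ccnb1, Cdk1 and Mki67) and 14.3% of the 10923. The GC box was in 8 of 9 G1 regulators, 7 of 9 replication genes and 12 of 14 mitotic genes, beside 69.1%. Over all 27025 genes with a window the share with both CHR and CCAAT letters was 7.97%. The windows of E2f1 and Mcm5, and the Cdkn2c window with the E2F-type letters, held no start of an isoform measured here. Both E2f1 starts lay upstream of its window. Isoforms starting in the Cdk4 window held 0.0569% of the Cdk4 value, and those in the 2 Mcm7 windows held 5.07% and 0% of the Mcm7 value. These windows therefore do not hold the starts of most of the measured transcripts of their genes. The share was also low for Cdk1 (30.7%), Bub1 (38.9%), Top2a (40.7%), Aurka (47.2%) and Bub1b (49.8%). It was 33.6% for Tyms, 35.2% for Rrm1, 46.4% for Mcm3, 46.9% for Pcna, and 0.181% and 28.1% for the 2 Ccnd3 windows. For every other gene 1 window held from 51.1% (Cdc20) to 100% (Ube2c among others). The motif matches are a description of letters in the windows and were not tested. Of the mitotic genes without CHR letters, Ccnb1 was called over all OGD cultures, and Birc5, which held none of the CHR, CCAAT and E2F-type letters, rose there by 0.91 ± 0.22 (padj = 0.00879, limma).

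**Figure D5:**
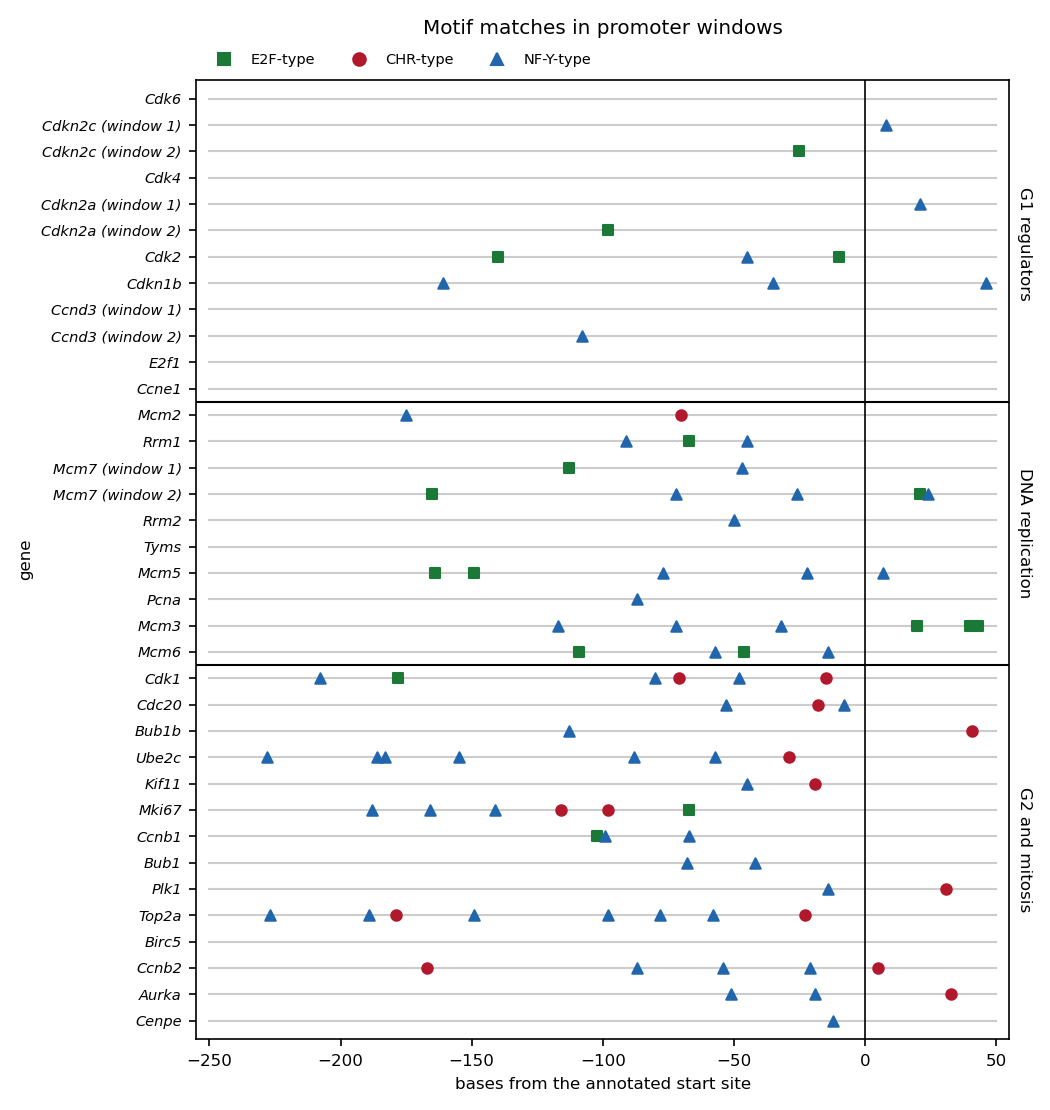
Position of each CHR (circles), CCAAT (triangles) and E2F-type (squares) match in the promoter windows of the 32 genes (rows, by class; 4 genes have 2 windows), in bases from the annotated start. CHR-type matches lie in 10 mitotic genes and in Mcm2 alone outside that class, and the windows of Cdk6, Cdk4, E2f1, Ccne1, Tyms and Birc5 hold none of the 3, of which that of E2f1 contains no start of a measured isoform.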

How the data were processed

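Libraries were stranded mRNA, sequenced with 50-base single-end reads. The authors' service provider mapped them with STAR to GRCm38 and estimated isoform expression with eXpress, and the labels' processing notes also name FastQC and DESeq2, without versions. The deposited values are FPKM per isoform after TMM scaling. Of 135276 lines, 74 without an identifier were left out. FPKM were summed per symbol, so isoform assignment by probability and division by length are in every value. Depth was estimated from the steps of low values over 17546 single-isoform genes.

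Genes whose FPKM averaged 0.5 or more over the cultures fitted were tested with limma 3.58.1 in R 4.3.3 (trend, empirical Bayes, Benjamini-Hochberg) on log2(FPKM + 0.1). Fold changes are on that scale and understate changes of low genes. Two-sided exact permutation tests used 70 assignments, with 0.0286 as the smallest p. On simulated data for OGD-VEH against CONTROL-VEH (15763 genes), 94.5% of 200 genes changed by 2 on the log2 scale were called, with 3 false calls. All simulated cultures had the spread of the CONTROL cultures, drawn gene by gene. The real scores of G1, replication and mitotic members had SDs of 0.36, 0.45 and 0.62 in OGD-VEH and 0.05, 0.13 and 0.51 in CONTROL-VEH. The simulated rates therefore do not carry over to these groups. The study's own tool, DESeq2, needs counts and was not run. Python 3.11.15 was used for the rest.

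The members and lists were chosen with earlier results of these data known. Values in every culture are given for members called in any comparison and for the 3 of each class with the smallest p in OGD-VEH against CONTROL-VEH. From the wider lists at most 5 called genes per list are named. Marker genes were named by whether they were called. Alternatives covered pseudocounts, filters, scaling, weights, isoform handling and each culture left out. Sums over protein-coding isoforms alone and the isoform holding most reads were added after seeing the data.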

Additional observations from a re-analysis of the deposited data

Results flagged for a closer look

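In 11 of 160 groups of 4 values, 1 culture lay far from the other 3 on the log2 scale, by Dixon's criterion, where chance gives about 8. Culture 16 did so among OGD-TIA for Cdk2, at 8.80 FPKM beside 4.13 to 4.24, and for Cdk4, at 952 beside 566 to 611. Culture 9 did so among OGD-VEH for Ccnd1, at 26.0 beside 72.8 to 81.4, and culture 12 for Cdkn1b, at 96.2 beside 73.0 to 74.2. Culture 4 did so among CONTROL-VEH for Cdk6, at 1.66 beside 0.912 to 0.998, and culture 2 for Ccne1, at 8.44 beside 5.89 to 6.07, and for Rrm1, at 17.1 beside 31.7 to 33.3.

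The others were Cdk4 in culture 5 of CONTROL-TIA, at 538 beside 465 to 475, Tyms in culture 6, at 5.97 beside 10.8 to 11.4, Cdk1 in culture 7, at 6.94 beside 21.9 to 25.9, and Ccnd3 in culture 14 of OGD-TIA, at 44.4 beside 69.2 to 74.4.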

How the results depend on the processing

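Members called in OGD-VEH against CONTROL-VEH numbered 3. The number was 0 with all low genes kept and with the highest-mean isoform of each gene, 6 with protein-coding isoforms alone, 11 with isoforms weighted by length and with all 16 cultures in one fit, and 18 with array quality weights, and it ran from 0 to 23 when 1 culture was left out. Array quality weights called 1 member (Cdk6) and 80 of 16242 genes in OGD-TIA against CONTROL-TIA, and 3 members (Aurkb, Cdkn2a and Rrm1, lower) and 408 of 16351 genes, 262 lower, in OGD-TIA against OGD-VEH, where no member was called otherwise. For all OGD against all CONTROL, 7 members were called, with 4 at a pseudocount of 1, 3 with the highest-mean isoform, 2 with the isoform holding most reads, and 3 to 13 (526 to 1058 of all genes) when 1 culture was left out. No called member changed sign under any alternative run. All genes called in OGD-VEH against CONTROL-VEH numbered 668, and 36 with all low genes kept, 19 with the highest-mean isoform, 1122 with isoforms weighted by length, 1390 with all 16 cultures, 1929 with array quality weights, and 1 to 2186 when 1 culture was left out. No paired analysis was made because the labels name no pairs. Culture numbers run from 1 to 16 over the whole study and no 2 groups share any. Cultures 4, 8, 12 and 16, the last of each group, were its highest in astrocyte markers, at scores of 0.89, 0.26, 1.66 and 1.24. In mitotic genes culture 8 was instead the lowest of CONTROL-TIA, at -0.2. Whether cultures at the same position share a preparation is not given and was not tested. At 1 read per 0.0385 to 0.0503 FPKM on 1 kb, low values of short isoforms rest on few reads. Other causes of these shifts were not tested.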
